A study of Mus musculus with 2 samples.

Results

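Carbonic anhydrases are enzymes that interconvert carbon dioxide and water with bicarbonate and a proton. Most hold a zinc ion that histidine side chains bind, and they differ in where they work: some in the cytosol, some on the cell surface, some in mitochondria and some in secretions such as saliva. In taste buds the surface enzyme Car4 is known as a product of sour-sensing cells and for its role in the taste of carbonation. The genes described here are the 10 carbonic anhydrase genes *Car2*, *Car3*, *Car4*, *Car6*, *Car7*, *Car8*, *Car9*, *Car12*, *Car13* and *Car14*, taken by symbol from a gene table of 18498 rows from mouse tongue. Each of the 10 had 1 row.

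The table compared the circumvallate papillae (CvP), which hold the taste buds of the posterior tongue, with tongue epithelium free of papillae (Epi). Both samples came from male C57BL/6J mice aged 12 to 30 weeks on normal chow, with no transgene or treatment. RNA of at least 20 mice was pooled before 1 poly(A) RNA library was made per tissue, so neither tissue has a replicate, no p-value was calculated and every ratio compares these 2 libraries. Levels are the deposited RPKM values, which scale the reads of a gene to its length in kilobases and to the mapped reads of its library. Ratios carry a 95% exact (Clopper-Pearson) interval from estimated reads, which covers counting error only.

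The libraries held about 28368790 (CvP) and 27908470 (Epi) mapped reads. Most rows were somewhat higher in the CvP: among the 10363 rows with an RPKM of at least 1 in both libraries the median CvP/Epi ratio was 1.31. The epithelial keratins *Krt13* and *Krt4* were abundant in both libraries, at 17549 and 11801 in the CvP and 47815 and 22406 in the Epi. *Krt14*, another keratin, had an RPKM of 295 (CvP) and 1140.2 (Epi), and *Lor*, a protein of the cornified envelope, one of 1052 and 4379. These were the 2 of 7 keratinocyte markers that were over 3-fold lower in the CvP. *Krt5*, at 1506 (CvP) and 1271 (Epi), and *Trp63*, at 62.3 and 33.6, were the 2 that were higher there. The median log2 ratio of the 7 was -0.92.

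The stretch that carries the zinc site is shown for the 5 members that reached 1 RPKM in either library. Each line is 30 bases of coding sequence of NCBI37/mm9, read 5′ to 3′ along the gene, and the capitals mark the codons at the positions of the first 2 zinc-binding histidines, found by alignment to *Car2*.
Car2: atccagtttCACtttCACtggggctcatct
Car7: aagcagctcCACttcCACtggggcaagaag
Car13: cggcagttcCATttgCACtgggggtcagca
Car4: gtacagttgCACctgCACtggtcaaatggg
Car12: gagcagctgCACttgCACtgggggaaccgc
Histidine is coded by CAC or CAT, and all 5 genes had a histidine codon at both positions. The stretches lie in exon 3 of *Car2* (chr3:14895060-14895089, plus strand), of *Car7* (chr8:107071625-107071654, plus strand) and of *Car13* (chr3:14650697-14650726, plus strand), and in exon 4 of *Car4* (chr11:84777660-84777689, plus strand) and of *Car12* (chr9:66595445-66595474, plus strand). Apart from this stretch, the whole longest coding transcript of each member was compared with those of the other carbonic anhydrase genes, on both strands. No window of 75 bases, the length of a read, came within 2 mismatches of another of these transcripts. Over all windows, the fewest mismatches ranged from 4 for *Car8* to 24 for *Car4* and *Car14*. Other genes were not in this check. Neither were bases beyond these transcripts, though the lengths listed for some members exceed them.

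The family divided into 3 patterns. *Car12* and *Car13* were high in both libraries and differed little between them. *Car2*, *Car4* and *Car7* were expressed in the CvP and were close to 0 in the Epi. The other 5 members, *Car3*, *Car6*, *Car8*, *Car9* and *Car14*, had an RPKM below 1 in both libraries.

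**Figure D1:**
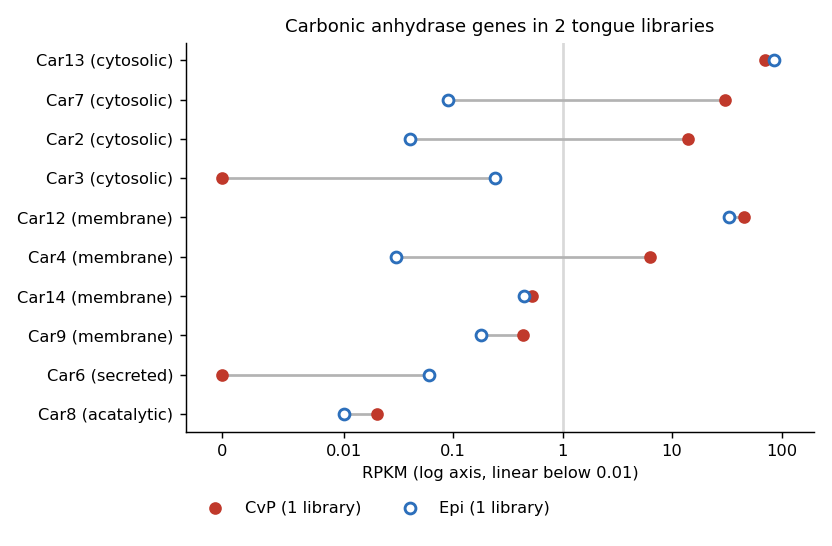
RPKM of the 10 carbonic anhydrase genes in the CvP library (filled) and the Epi library (open), on an axis that is logarithmic above 0.01. The place where the enzyme works is given beside the name, except that *Car8*, without enzyme activity, is labelled acatalytic. The vertical line marks an RPKM of 1. *Car7*, *Car2* and *Car4* lie at 30.6, 13.98 and 6.24 in the CvP and below 0.1 in the Epi, while the pairs of points of *Car13* and *Car12* nearly meet.

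With the thresholds of the study applied to the deposited RPKM, more than 10 in the CvP and over 3 times the Epi level, 2 of the 10 members passed, *Car2* and *Car7*, where 2.35% of all rows did. With the minimum lowered to a CvP RPKM of 1, *Car4* was added and 3 of the 10 passed, against 10.8% of all rows. In the opposite direction none of the members passed, either with the tissues exchanged in these criteria, which 0.6% of all rows met, or with the minimum again lowered to 1, which 1.33% met. In direction alone the family was like the rest of the table. In the CvP 7 of the 10 members were higher, as were 13880 of the 18498 rows. The 7 include *Car8*, which had 3 or fewer reads in each library. After division by the median ratio 6 members were higher, since *Car14* stood at 0.900. The share of all rows after this division was not calculated. The median log2 ratio (with 0.1 added to each RPKM) was 0.32 over the 10 members, *Car6* and *Car8* included, and 0.49 over all rows.

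*Car7*, a cytosolic enzyme best known from neurons, had the highest CvP level of the 3 genes of the second pattern. It lies at chr8:107064707-107074243 on the plus strand of NCBI37/mm9. Its RPKM was 30.6 in the CvP, above 90.2% of all rows, and 0.09 in the Epi, above 24.5% of them. The ratio was 340.2 (95% interval 142 to 1024), from an estimated 1688 (CvP) and 5 (Epi) reads by the length of the annotated transcript. The longer length listed for the gene gave 2310 and 7 reads and an interval from 157 to 808.

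*Car2*, the widespread cytosolic enzyme of high activity, lies at chr3:14886426-14900770 on the plus strand. Its RPKM was 13.98 (CvP) and 0.04 (Epi). About 710 reads stood against 2, so that the ratio of 349.5 had a wide interval, from 96.3 to 2889. The deposited values have 2 decimals, and the rounding of the Epi value alone allows a ratio between 311 and 399.

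*Car4*, which is tethered to the outer face of the cell membrane by a lipid anchor, lies at chr11:84771256-84779556 on the plus strand. It had an RPKM of 6.24 (CvP) and 0.03 (Epi). The ratio was 208. Its reads depend on the length taken for the gene: the listed length gave about 1012 (CvP) and 5 (Epi) reads and an interval from 85.0 to 615, and the shorter annotated transcript, used for the intervals here, gave 222 and 1 reads and a wider one, from 38.8 to 8665. For all 3 genes the lower limit of the interval was far above the ratio of 3 and above the median ratio of 1.31. The 3 intervals overlap, so the data give no order of the ratios of *Car2*, *Car4* and *Car7*.

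**Figure D2:**
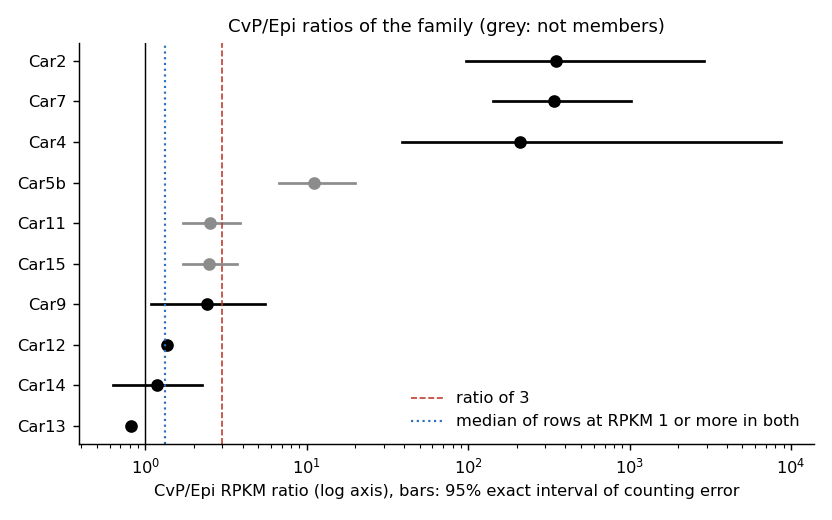
CvP/Epi RPKM ratio on a log axis for the 7 members with a ratio (black) and 3 further carbonic anhydrase genes (grey), with bars for the 95% exact interval of counting error; the dashed line marks a ratio of 3 and the dotted line the median ratio of 1.31. *Car2*, *Car7* and *Car4* lie at 349.5, 340.2 and 208 with overlapping bars, and *Car13*, at 0.819, is the only plotted gene with a ratio under 1.

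*Car13*, another cytosolic enzyme, was the most abundant member in both libraries. It lies at chr3:14641727-14663002 on the plus strand. Its RPKM of 69.9 in the CvP was above 96.5% of all rows, and its RPKM of 85.4 in the Epi was above 97.1%. The ratio of 0.819 (0.787 to 0.852) put it slightly lower in the CvP, while most rows were higher there. Relative to the median ratio of 1.31 it was 0.624.

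*Car12*, which spans the membrane with its catalytic part outside the cell, came next. It lies at chr9:66561493-66614652 on the plus strand, with an RPKM of 45.3 (CvP) and 33.4 (Epi). Its ratio of 1.36 (1.30 to 1.42) was close to the median ratio of 1.31, and relative to that median it was 1.03. The intervals of *Car12* and *Car13* do not overlap, which concerns counting error only, since the spread between mice cannot be seen in pooled RNA.

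The make-up of the family thus differed between the tissues more than its sum did. Summed over the 10 members, RPKM was 167 (CvP) and 119.9 (Epi), a ratio of 1.39. In the Epi *Car12* and *Car13* made up 99.1% of this sum, and in the CvP they made up 69.0%. *Car2*, *Car4* and *Car7* together held 30.4% of the sum in the CvP and 0.133% in the Epi. By place of action, the 4 cytosolic members summed to 115 (CvP) and 85.8 (Epi), and the 4 membrane members to 52.5 and 34.1.

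**Figure D3:**
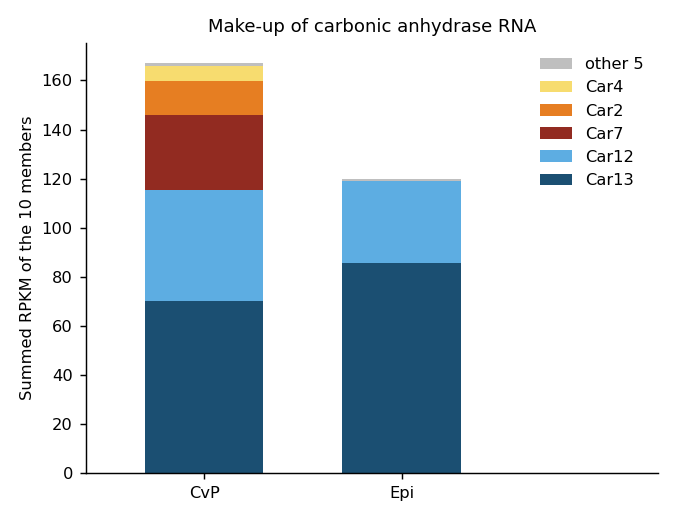
Summed RPKM of the 10 members in each library, stacked by gene from an axis that starts at 0. The bars reach 167 (CvP) and 119.9 (Epi); nearly the whole Epi bar is *Car13* and *Car12*, while *Car7*, *Car2* and *Car4* fill 30.4% of the CvP bar.

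Levels of different members can be compared only as far as their lengths can. By a check of which length gives whole reads, in rows of up to 1.6 kb, the deposited RPKM is per listed length. Rows as long as those of *Car4*, *Car12* and *Car13* were not in the check. The listed length of *Car13* was 12.5 kb, 5.43 times that of its longest annotated coding transcript. It was 4.55 times for *Car4*, 3.91 times for *Car12*, 1.37 times for *Car7* and 1.00 times for *Car2*. If all reads of each row fell on the annotated transcript, the CvP levels would be 380 for *Car13*, 177 for *Car12*, 41.9 for *Car7*, 28.4 for *Car4* and 14.0 for *Car2*. *Car4* then stands above *Car2*, so the order of these 2 genes depends on the length used. On that scale the family summed to 642 (CvP) and 596 (Epi), a ratio of 1.08, *Car12* and *Car13* held 86.7% and 99.8% of the sums, and *Car2*, *Car4* and *Car7* held 13.1% and 0.0503%. The shares in the CvP thus depend on the length. The ratio of a single row between tissues does not, since both libraries are divided by the same length. Whether the bases beyond the annotated transcripts have the same ratio as the transcripts was not tested.

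*Car2*, *Car3* and *Car13* lie in 1 region. Together they span 259 kb of chromosome 3, and these 3 members are all on the plus strand. The 201 kb between *Car13* and *Car3* hold *Car1*, on the minus strand, and 14.1 kb lie between *Car3* and *Car2*. The patterns of the 3 members had little in common. *Car13* was high in both tissues, *Car2* was high in the CvP alone, and *Car3*, nearest to *Car2*, was listed at 0 in the CvP.

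*Car3*, an enzyme of low activity that is abundant in skeletal muscle and fat, lies at chr3:14863538-14872373 on the plus strand. It had an RPKM of 0 (CvP) and 0.24 (Epi), the latter about 10 reads. Set against a floor of 3 reads in the CvP library, an RPKM of 0.0702, it was at least 3.42-fold lower in the CvP. This bound takes the Epi reads as exact, and the 95% interval of the CvP/Epi ratio, which does not, ran from 0 to 0.439. Markers of muscle were lower in the CvP as well. Of 11 markers of fast muscle 10 were over 3-fold lower in the CvP, their summed RPKM was 8.72 (CvP) and 81.2 (Epi), and the median log2 ratio of those with an RPKM of at least 1 was -3.44. The actin gene *Acta1*, the creatine kinase gene *Ckm* and the troponin genes *Tnnc2* and *Tnni2* had RPKM values from 0.67 to 2.53 in the CvP and from 10.6 to 12.9 in the Epi. Of 7 markers of slow muscle 5 had a row, and 1 of them, *Mb* (myoglobin), was over 3-fold lower, at 0.68 (CvP) and 6.52 (Epi). The other 2 highest of that list were *Tnni1*, at 0.35 and 0.84, and *Tnnc1*, at 0.10 and 0. Among 8 adipocyte markers *Fabp4* was at 0.17 (CvP) and 3.24 (Epi), *Adig* at 2.07 and 1.42, and *Cfd* at 0 and 0.07. The defining adipocyte genes *Adipoq* and *Plin1* were at 0 in the CvP and at 0.03 and 0.02 in the Epi. The part of muscle or fat in the *Car3* value was not tested. In whole tissue, fewer cells of a type and less RNA per cell cannot be told apart.

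*Car6*, the secreted enzyme of saliva, lies at chr4:149561125-149575244 on the minus strand. It was listed at 0 in the CvP and at 0.06 in the Epi, about 2 reads. Both libraries were thus at or below the floor of 3 reads, and no fold is given. A count of 0 allows an RPKM of up to 0.0772 in the CvP. Some products of salivary glands were nevertheless present. Of 14 gland markers 11 had a row, 6 were over 3-fold lower in the CvP and 2 were over 3-fold higher. *Lipf* (lingual lipase) had an RPKM of 1.96 (CvP) and 313 (Epi), *Amy1* (amylase) one of 0.85 and 80.5, and *Psp*, a salivary secretory protein, one of 0.07 and 27.15. *Pigr*, which carries antibodies across epithelia, was at 12.0 (CvP) and 0.54 (Epi). The list's summed RPKM was 23.3 (CvP) and 449 (Epi), and its median log2 ratio over 9 genes was -5.92.

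*Car9* and *Car14* are both enzymes that span the membrane, and both were found at low levels. *Car9*, which is induced by hypoxia, lies at chr4:43519898-43526597 on the plus strand. It had an RPKM of 0.43 (CvP) and 0.18 (Epi), about 24 and 10 reads, a ratio of 2.39 (1.09 to 5.53). The interval includes the median ratio of 1.31. Of its exon bases 214 are shared with a non-coding gene on the opposite strand, *Gm12454*. None of 15 other hypoxia-responsive genes was over 3-fold apart between the tissues. Their median log2 ratio was 0.21, or -0.18 once the log2 of the median ratio of 1.31 was subtracted. The glycolytic enzymes among them were the most abundant, *Aldoa* at 269 (CvP) and 333 (Epi), *Ldha* at 195 and 239, and *Eno1* at 117 and 109.9.

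*Car14* lies at chr3:95701723-95708562 on the minus strand. RPKM values were 0.52 (CvP) and 0.44 (Epi), a ratio of 1.18 (0.625 to 2.25), and at this depth a difference was not detectable. In the annotation its exons share 445 bases with *Aph1a* on the opposite strand, which had an RPKM of 22.6 (CvP) and 22.4 (Epi). Strand is not named in the sources as part of the counting, and reads of the pair cannot be told apart where they overlap.

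*Car8*, whose protein has no enzyme activity and binds the inositol trisphosphate receptor, had an RPKM of 0.02 (CvP) and 0.01 (Epi). It lies at chr4:8068640-8166188 on the minus strand. Both values correspond to 3 or fewer reads, and no fold is given.

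**Figure D4:**
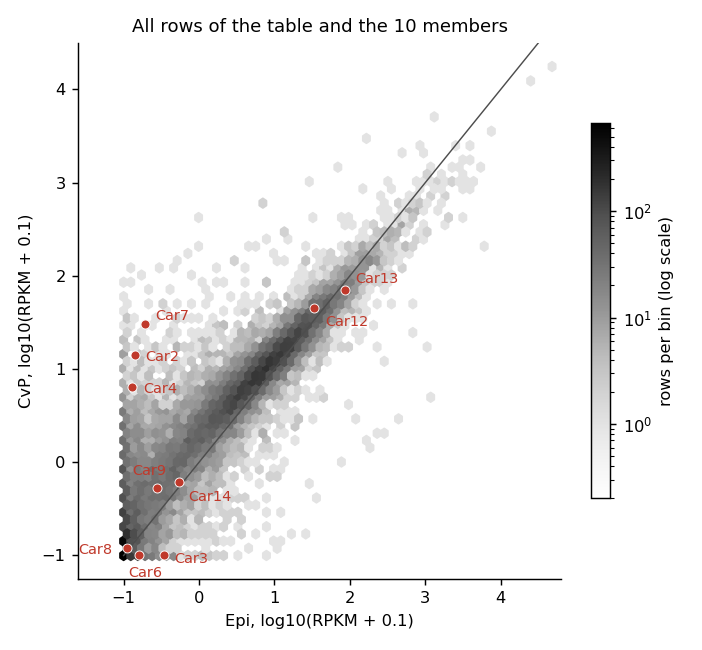
CvP against Epi for all 18498 rows, as log10(RPKM + 0.1), with darker bins holding more rows, the diagonal marking equal levels and the 10 carbonic anhydrase genes as red points. *Car7*, *Car2* and *Car4* stand above the main cloud at its left edge, *Car12* and *Car13* lie on the diagonal, and the other 5 members are near the lower left corner.

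Of 6 further carbonic anhydrase genes 4 had a row, and none reached an RPKM of 3. *Car5b*, a mitochondrial enzyme, had an RPKM of 1.87 (CvP) and 0.17 (Epi), a ratio of 11.0 (6.71 to 20.0), and it was the only one over 3-fold apart with an RPKM of at least 1. *Car11*, which like *Car8* has no enzyme activity, was at 2.06 (CvP) and 0.82 (Epi) (ratio 2.51, 1.71 to 3.85). *Car15*, anchored to the membrane like *Car4*, was at 2.71 and 1.10 (ratio 2.46, 1.71 to 3.72). *Car5a*, also mitochondrial, was at 0 and 0.06, at or below the floor in both. *Car1* and *Car10* were not analysed here.

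Markers of taste cells were higher in the CvP together with *Car2*, *Car4* and *Car7*. All 7 markers of type III cells, which include the sour-sensing cells, were over 3-fold higher, and their summed RPKM was 110 (CvP) and 1.01 (Epi). *Otop1*, the proton channel of sour taste, was at 20.1 in the CvP, *Pkd2l1* at 16.8 and *Snap25*, a protein of synaptic vesicle release, at 11.1, and each was listed at 0 in the Epi. *Pkd1l3* was at 47.6 and 0.40. Among 8 markers of type II cells, which sense sweet, bitter and umami, 7 were over 3-fold higher in the CvP, with a summed RPKM of 317 against 22.9. *Gnat3*, *Plcb2*, *Trpm5*, *Tas1r3* and *Tas1r2* had CvP values from 20.3 to 127 and Epi values from 0.01 to 0.70, and most of the Epi sum was *Itpr3*, at 21.9. Of 3 markers of type I cells, *Entpd2* was at 54.8 (CvP) and 4.53 (Epi), *Kcnj1* at 13.5 and 0, and *Slc1a3* at 1.04 and 3.82, the opposite direction. The median log2 ratio was 3.57 for type I, 6.26 for type II and 6.58 for type III markers, and the values of *Car4*, *Car2* and *Car7* on this scale were 5.61, 6.65 and 7.34. The RNA came from whole tissue and does not show which cells held the carbonic anhydrase transcripts.

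Other cell types also differed between the tissues. Of 8 macrophage markers 6 were over 3-fold higher in the CvP, where the summed RPKM was 183 against 8.06 in the Epi, and the median log2 ratio was 3.21. *Lyz2* was at 132 and 0.43, *Cd14* at 20.4 and 0.94, and *Cd68* at 10.8 and 4.45. Among markers of glia and nerve, 7 of 8 had a row, all of them higher in the CvP but 1 over 3-fold with an RPKM of at least 1. This was *Mal*, which some epithelia also express, at 216 and 5.74, whereas *Mbp* was at 10.3 and 8.94. Red blood cells are rich in *Car2*, and markers of erythroid cells were low in both libraries. The haemoglobin genes *Hba-a1* and *Hba-a2* were at 0.32 in the CvP and up to 0.77 in the Epi, near-identical copies between which reads may have been split. *Alas2*, the haem synthesis enzyme of erythroid cells, was at 1.37 (CvP) and 0.22 (Epi), the only 1 of 6 over 3-fold higher. The part of these cells in the values of *Car2*, *Car4* and *Car7* was not tested.

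Carbonic anhydrases supply the substrates of bicarbonate and proton transporters, and these genes were described as background to the family. Of 16 bicarbonate transporter genes 15 had a row, 3 were over 3-fold higher in the CvP with an RPKM of at least 1, and none was over 3-fold lower. *Slc4a7*, a sodium bicarbonate cotransporter, was at 8.01 (CvP) and 0.65 (Epi), a ratio of 12.3 (10.3 to 14.8). *Cftr*, the anion channel, was at 6.06 and 0. The 2 with the highest levels differed less. The anion exchanger *Slc4a2* was at 16.2 and 8.89, and *Slc26a9* was higher in the Epi, at 20.2 (CvP) and 41.5 (Epi). The median log2 ratio over the 7 with an RPKM of at least 1 was 0.96, against 0.50 over the 12549 rows of that kind.

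Among 13 proton transporter genes 5 were over 3-fold higher in the CvP and none lower, with a median log2 ratio of 2.15. Besides *Otop1*, the sodium/proton exchangers *Slc9a2* and *Slc9a4* were at 2.88 and 3.78 in the CvP and at 0 in the Epi. The lactate transporter *Slc16a1* was at 10.9 and 14.6. The V-ATPase, a proton pump of many subunits, showed little difference: of 23 genes with a row 3 were over 3-fold higher in the CvP and none lower. The median log2 ratio was 0.08, which became -0.31 once the log2 of the median ratio of 1.31 was subtracted. By the higher of the 2 libraries, the most abundant subunit genes were *Atp6v1e1*, at 187 and 157, *Atp6v0e*, at 105 and 97.3, and *Atp6v1b2*, at 72.6 and 104. *Atp6v0e2* was the 1 subunit gene above an RPKM of 10 with a ratio over 3, at 16.3 (CvP) and 4.14 (Epi).

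**Figure D5:**
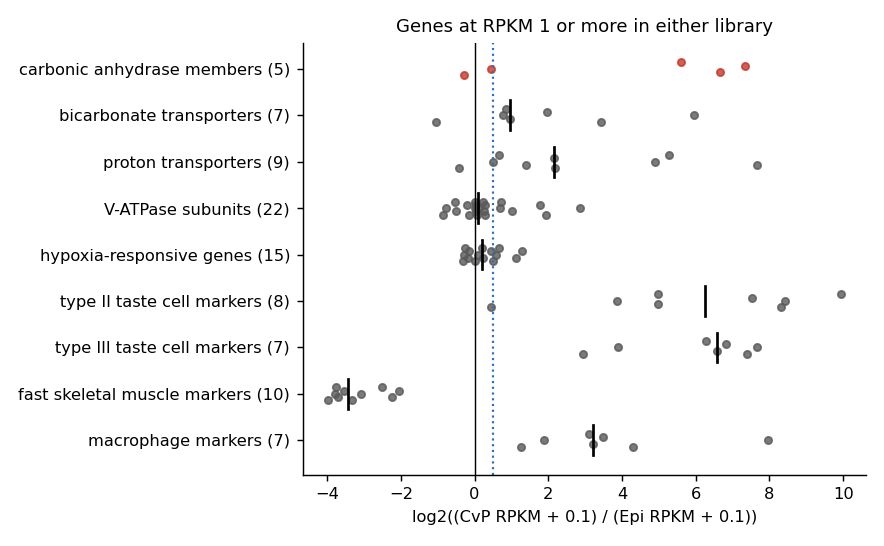
Difference between the tissues, as log2 of (CvP RPKM + 0.1) over (Epi RPKM + 0.1), for genes that reached 1 RPKM in either library; each point is a gene, black ticks are list medians, the number of genes stands beside each name and the dotted line is the median of all such rows. The 5 carbonic anhydrase genes (red) fall into 2 near 0 and 3 between 5.61 and 7.34. These 3 lie within the wide ranges of the type II (0.46 to 9.93) and type III (2.95 to 7.66) taste cell markers. The bicarbonate transporter gene *Cftr* lies there too, at 5.94, and the V-ATPase genes gather near 0.

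The genes most like *Car2* over the 2 libraries, by distance in log2(RPKM + 0.1), were *Cxcl17* (RPKM 15.3 (CvP) and 0.05 (Epi)), *Wif1* (15.1 and 0.06) and *Ltc4s* (12.7 and 0.06), and 22 genes lay within a distance of 0.5. Those most like *Car13* were *Rdh12* (69.8 and 86.5), *Mapk3* (71.5 and 86.1) and *1500032L24Rik* (69.8 and 83.1), where 202 genes lay within the same distance. With 2 libraries, this likeness says only that both levels were close.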

How the data were processed

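The 2 pooled libraries, CvP and Epi, were compared. The authors prepared poly(A) RNA with a TruSeq kit, mapped single-end reads of 75 bp with Bowtie 0.12.7 to NCBI37/mm9 and deposited RPKM values from ERANGE. The options of ERANGE, its annotation release and its treatment of reads with several matches are not given in the sources used here. The authors' ratio column was not used.

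The members and gene lists were chosen with earlier results of these data known. All members were named. Of each list the 3 genes with the highest RPKM in either library, and those over 3-fold apart with an RPKM above 10 in the higher library, were named, with the 3 genes nearest to the members of highest and lowest ratio. Some genes and a sequence that this rule takes in are not reported here. *Cftr*, *Slc9a2*, *Slc9a4*, *Itpr3*, *Adipoq*, *Plin1*, *Car5a*, *Aph1a*, *Gm12454*, *Krt5* and *Trp63* were named after their values were seen. The lists were the other carbonic anhydrases, bicarbonate transporters, proton transporters, V-ATPase subunits, hypoxia-responsive genes and markers of taste cell types I to III, salivary gland, fast and slow skeletal muscle, adipocytes, erythroid cells, macrophages, glia and nerve, and keratinocytes. List medians cover genes that reached 1 RPKM in either tissue, and 0.1 was added to each RPKM, which understates the change of low genes. Medians were given for lists with at least 3 such genes.

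Mapped reads per library were read from the steps of RPKM in 163 rows of 0.1 kb. Estimated reads of a row used its listed length or, where shorter, that of the longest GENCODE M1 coding transcript, and the floor was 3 reads. Ratios of *Car2* and *Car4* were still given, though their Epi reads were below this floor by the length used. Calculations were tested on simulated data and used Python 3.11.15, numpy 2.4.6, pandas 2.3.3, scipy 1.17.1, MAFFT 7.526 and matplotlib 3.10.9. Alternative minimums, pseudocounts, scalings and lengths were tried.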

Additional observations from a re-analysis of the deposited data

How the results depend on the processing

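No paired analysis was possible because there is only 1 library of each tissue, and no result rests on a test. The members meeting both criteria were 2, and 1 (*Car7*) at a minimum CvP RPKM of 20. They were 3 at a minimum of 1 or 5 and with RPKM rescaled to a common sum, where *Car4* was added, and 2 under the other alternatives. The share of all rows that met them was 2.35% with the study's thresholds, 1.21% at the minimum of 20, 4.23% at 5, 10.8% at 1 and 7.47% after rescaling. With a minimum RPKM of 1 in the higher library, 3 members were over 3-fold higher in the CvP and 0 over 3-fold lower under each pseudocount and scaling tried, while the share of all rows that were higher ranged from 4.98% (pseudocount 1) to 19% (rescaled). Rescaling raised the values of both libraries while the minimums stayed the same. It thus also admitted genes of lower deposited RPKM, such as *Car4*, at 6.24 in the CvP against the minimum of 10.

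A pseudocount of 1 lowered the ratio of *Car2* to 14.4, that of *Car4* to 7.03 and that of *Car7* to 29.0, since the Epi values are far below 1. Divided by the median ratio or rescaled to a common sum, *Car12* was at 1.03 and 1.64, and *Car13* at 0.624 and 0.988. Subtracting the median ratio turned the median log2 ratio of the V-ATPase list from 0.08 to -0.31 and that of the hypoxia list from 0.21 to -0.18. A pseudocount of 1 brought the medians closer to 0 for proton transporters (2.15 to 1.36), type II (6.26 to 4.17) and type III markers (6.58 to 3.60, now below type II), macrophage (3.21 to 2.17), salivary gland (-5.92 to -3.14) and fast muscle markers (-3.44 to -2.24). Without the filter on low values the medians were 1.46 for proton transporters and -4.31 for salivary gland markers. With reads taken from the listed length, the lower limits were 85.0 for *Car4* and 157 for *Car7*. No fold is given for *Car6* or *Car8* alone under any setting, though both entered the median log2 ratio of the 10 members. Depth limits *Car3*, *Car6*, *Car8*, *Car9* and *Car14*, each with 24 or fewer estimated reads in either library.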

Other observations

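For short rows, the length behind the deposited values could be read from the values themselves. A value of few reads is a whole number of reads once it is multiplied by the right length and the depth. In rows of up to 1.6 kb whose listed length exceeded the longest annotated coding transcript by over 0.15 kb, 71.9% of 96 values below 12 reads were whole with the listed length, where 38.5% would be if values were spread evenly between whole reads, and 27.7% of 119 values were whole with the transcript length, where 25.9% would be. Whole allows for the rounding of the deposited value plus 0.02 reads. The intervals in the report, which use the shorter length, are wider than the listed length would give where it is the longer of the 2. The check, and the calculation of levels and family sums with all reads on the annotated transcript, were chosen after seeing the data. What the bases beyond the annotated transcripts of *Car4*, *Car12* and *Car13* are was not tested.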
